A study of Mus musculus with 4 samples.

Results

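The genes described here are the receptors, ligands and fringe glycosyltransferases of the Notch pathway in mouse neural stem/progenitor cells (NSPCs) given the PARP inhibitor PJ34. The 10 genes are Notch1, Notch2 and Notch3 (receptors), Dll1, Dll3, Jag1 and Jag2 (ligands) and Mfng, Lfng and Rfng (fringes). They were found by the gene names of the array's probes, which gave 16 probes of 55681, and all 10 genes were among the 19682 of 35019 genes that had a probe above background and were tested. The genes were chosen by name, with their PJ34 response in both genotypes and their untreated levels already known, so their values are given as a description, with no p-value and no count of genes past a threshold. The largest difference was that of Mfng, which was lower with PJ34 on all 4 arrays, 2.96-fold in the mean of the wild-type cells. Notch3 was higher with PJ34 on both wild-type arrays and lower on both Trp53-/- arrays, although the Trp53-/- mean turned to 0.13 when arrays were centred on their median. The median gene was then at 0.64 in those cells.

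Notch signalling passes between touching cells. A ligand on one cell pulls on a receptor of its neighbour, the receptor is cleaved, and its intracellular part enters the nucleus and switches on genes such as Hes1 and Hes5 together with the DNA-binding protein RBPJ. Fringe enzymes add a sugar to the receptor in the Golgi and so alter which ligands it answers to. In the embryonic brain, ligand on differentiating cells keeps neighbouring progenitors undifferentiated.

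NSPCs of embryonic day 13.5 from the strain Slc:ICR, either wild-type or Trp53-/- (without the gene for p53), were grown as neurospheres with EGF and basic FGF. On each of 4 Agilent arrays, 2 per genotype, RNA from cells treated with 20 µM PJ34 (labelled with Cy5) was set against RNA from untreated cells of the same genotype (labelled with Cy3). All cells of both genotypes shared age and strain per the labels, and medium, and per the methods each RNA came from an independent preparation. The paper obtained its Trp53-heterozygous mice from the RIKEN BioResource Center and names no strain for them, so a difference in strain background between genotypes was not excluded. The duration of treatment before RNA extraction was not given for the arrays, nor whether cultures came from separate embryos, so the spread between arrays may be partly technical. PJ34 was always in the Cy5 channel, and a preference of a probe for that dye cannot be told apart from a PJ34 effect within a genotype, whereas it cancels in the difference between genotypes. In these bulk samples, fewer cells of a type and less RNA per cell cannot be told apart.

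Between 21505 and 24540 probes were well above background in the control channel and between 26081 and 27156 in the PJ34 channel, and 0 spots were saturated. The log2 ratios of all genes correlated at 0.703 between the wild-type arrays and at 0.646 between the Trp53-/- arrays. The array of Trp53-/- replicate 2 stood apart. Its log2 ratios were 3.12 for Ddx3y and 4.22 for Eif2s3y, both Y-linked, and -3.08 for Xist, whereas on the other 3 arrays the Y-linked genes lay between -0.20 and 0.84 and Xist between 0.38 and 0.81. The PJ34 culture of Trp53-/- replicate 2 was thus richer in Y-linked RNA and its control culture in Xist, as male and female cells are. In the ratios of this array, a difference between cultures cannot be told apart from an effect of PJ34. Values are therefore given for each array, so that those of the Trp53-/- cells can be read with and without this array. All 10 neural stem/progenitor markers, among them Nes, Sox2, Vim and Fabp7, had a kept probe. The control level of Trp53 was 8.28 and 8.51 on the log2 scale in wild-type and 7.56 and 7.82 in Trp53-/- cells. Whether the probe lies in the deleted part was not given, so this level does not check the genotype.

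The sequences below belong to the probes on which the Mfng and Notch3 values rest, since a single probe carries Notch3 and a pair of neighbouring probes carries Mfng. The first 30 of the 60 bases of each are shown, with the position of the whole probe.
Mfng A_66_P113245 (mm9 chr15:78586332-78586391, minus strand): atgaaggaaaggccaagacaatctaaagtt
Mfng A_55_P2044439 (mm9 chr15:78586430-78586489, minus strand): atagaagggtttctggaatacattcccagc
Notch3 A_51_P220162 (mm9 chr17:32257848-32257907, minus strand): gcctaatagaaatgtttttaggctgttttt
Of the 10 genes, 9 had an entry in RefSeq's promoter table (GRCm38.p6), with Mfng the one without. The 250 bases before each start were searched for the core of the RBPJ site, TGGGAA, on both strands, and for CAGCTG, a palindromic E-box of the kind that basic helix-loop-helix proteins bind. The core TGGGAA was in 21.6% of all 32851 promoters and in 1 of the 10 windows of these genes (that of Lfng, which held it at 2 places). CAGCTG was in 13% of all promoters and in 4 of the 10 windows (Dll1 at 1 of its 2 starts, Dll3, Jag1 and Lfng). No 2 of these matches overlapped. Capitals mark the matches in the windows of the Delta-like ligands Dll1 and Dll3 and in the only window with the RBPJ core, that of Lfng.
Dll1 (GRCm38.p6 chr17:15376933-15377182, minus strand): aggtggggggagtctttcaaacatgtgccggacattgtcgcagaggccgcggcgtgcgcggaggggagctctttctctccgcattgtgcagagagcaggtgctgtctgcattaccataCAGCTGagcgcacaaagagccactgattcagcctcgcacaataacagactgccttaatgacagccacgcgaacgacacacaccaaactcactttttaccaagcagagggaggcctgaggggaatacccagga
Dll3 (GRCm38.p6 chr7:28301786-28302035, minus strand): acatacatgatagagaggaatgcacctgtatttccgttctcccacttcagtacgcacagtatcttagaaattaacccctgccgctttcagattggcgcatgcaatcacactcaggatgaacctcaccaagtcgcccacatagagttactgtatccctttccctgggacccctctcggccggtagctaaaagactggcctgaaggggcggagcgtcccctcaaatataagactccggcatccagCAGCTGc
Lfng (GRCm38.p6 chr5:140607091-140607340, plus strand): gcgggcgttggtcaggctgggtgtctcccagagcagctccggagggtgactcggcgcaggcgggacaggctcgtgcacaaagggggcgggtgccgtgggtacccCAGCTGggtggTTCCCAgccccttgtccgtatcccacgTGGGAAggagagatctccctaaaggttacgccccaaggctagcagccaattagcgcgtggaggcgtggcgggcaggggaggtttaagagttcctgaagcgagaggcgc
A match is a description of the letters and not a site of binding.

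Ratios of PJ34 over control are given on the log2 scale after loess normalization (a value of -1 is a 2-fold lower signal), in the order wild-type replicate 1, wild-type replicate 2, Trp53-/- replicate 1 and Trp53-/- replicate 2. With 2 arrays per genotype, values of the genotypes can lie apart by chance. The share of all genes that did so was not counted, so overlap is stated as a description only. The median over all genes was 0.03 in both genotypes. When each array was instead centred on the median of its spots, this median rose to 0.46 in wild-type and 0.64 in Trp53-/- cells, and a gene is therefore also given relative to it where its sign turned.

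**Figure D1:**
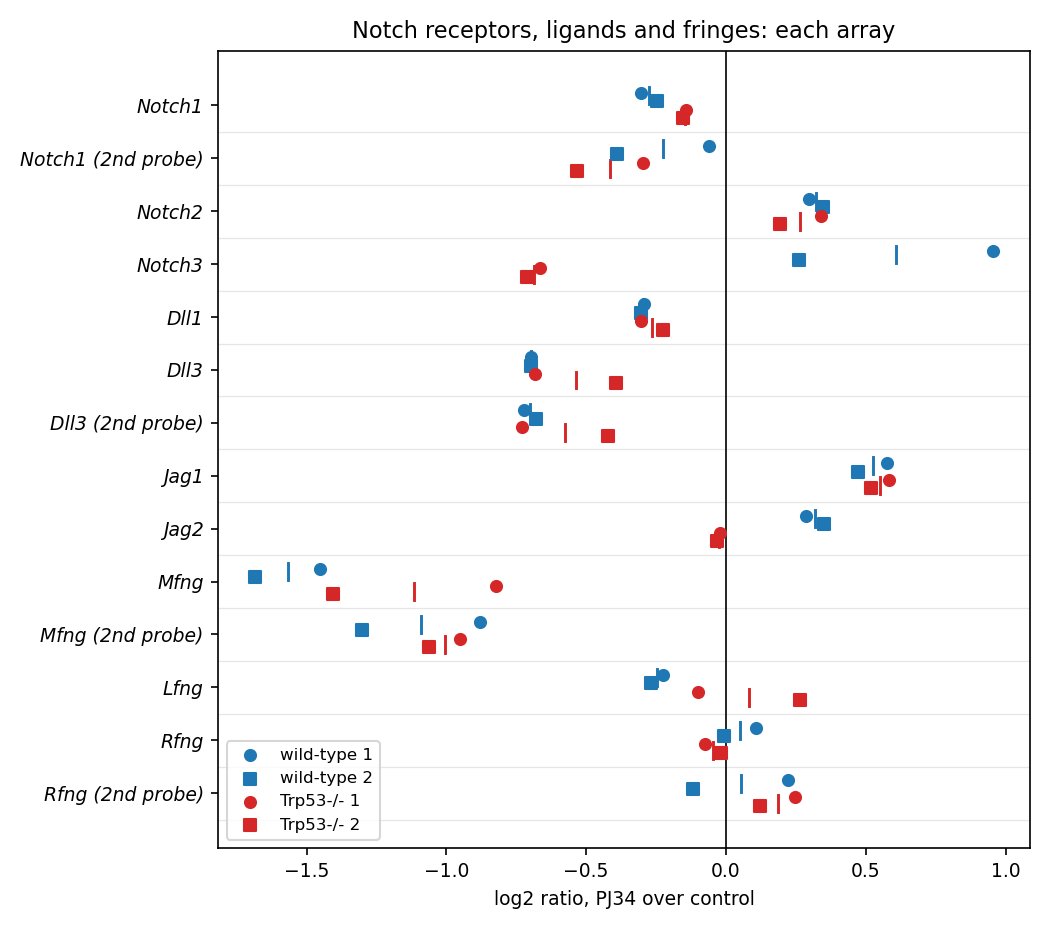
Log2 ratio of PJ34 over control (horizontal axis) for the 14 kept probes of the 10 genes. Each point is an array (blue wild-type, red Trp53-/-, circles replicate 1, squares replicate 2) and vertical strokes are genotype means. Both Mfng probes lie left of 0 on all arrays, and Notch3 lies right of 0 in wild-type and left of 0 in Trp53-/- cells. After median centring the means of the brighter probes turned positive for Notch1 and Dll1 in both genotypes, for Notch3, Dll3 and Rfng in Trp53-/- cells and for Lfng in wild-type cells.

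Among the receptors, Notch1, which with Notch2 is the receptor best known in neural progenitors, had log2 ratios of -0.31, -0.25, -0.14 and -0.15. Its mean was -0.28 ± 0.041 (SD, n = 2) in wild-type and -0.15 ± 0.0080 in Trp53-/- cells. It was slightly lower on all 4 arrays, but under median centring its means were 0.03 and 0.33, which were 0.43 and 0.30 below the median gene. A dimmer second Notch1 probe gave -0.06, -0.39, -0.30 and -0.53, but only 5 of its 8 channels were well above background. On wild-type replicate 2 neither channel was, and on Trp53-/- replicate 1 the control was not. The probes shared their sign and differed in the order of the genotypes, which the dimmer probe cannot settle.

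Notch2 gave 0.30, 0.35, 0.34 and 0.19, with means of 0.32 ± 0.034 and 0.27 ± 0.10 (SD, n = 2). It was higher on all arrays, 1.25-fold and 1.20-fold in the means, and the genotypes overlapped. A second Notch2 probe was not well above background in any channel.

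Notch3 is known above all from the mural cells of blood vessels and is also made by neural progenitors. Its log2 ratios were 0.95, 0.26, -0.66 and -0.71. The mean was 0.61 ± 0.49 (SD, n = 2) in wild-type cells, or 1.52-fold higher with PJ34, and -0.69 ± 0.033 in Trp53-/- cells, or 1.61-fold lower. The genotypes did not overlap, and their means differed by 1.30. The wild-type value rested largely on replicate 1, without which it was 0.26 and the difference was 0.95. Under median centring the Trp53-/- mean was 0.13, which was 0.50 below the median gene, and the difference was 1.08.

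The levels on either side of these ratios were as follows. The control level of Notch3 was 10.61 and 9.99 in wild-type and 10.64 and 10.57 in Trp53-/- cells on the log2 scale of intensity. With PJ34 it was 11.56 and 10.25 in wild-type and 9.98 and 9.86 in Trp53-/- cells. Untreated levels thus overlapped between genotypes, and treated levels did not.

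After loess normalization 0 of the 8 oligodendrocyte-lineage markers had a positive mean log2 ratio in Trp53-/- cells, and 5 of the 8 had one in wild-type cells. In Trp53-/- cells 6 of the 8 fell at p and q below 0.05 (limma) and 0 rose. In wild-type cells 3 fell and 0 rose. With the scanner's own ratios 1 fell and 0 rose in each genotype. In Trp53-/- cells 5 fell without background correction. There 4 fell with an offset of 16, with Benjamini-Hochberg adjustment or without a filter. Under median centring 5 rose and 0 fell in each genotype, but the median gene moved too, to 0.46 and 0.64. At more than 2-fold, that centring called 1162 of all genes higher and 2 lower in wild-type cells. In Trp53-/- cells it called 3374 higher and 4 lower. After loess normalization 10.6% of all genes fell in Trp53-/- and 11.4% in wild-type cells. Without Trp53-/- replicate 1 or 2, 3 and 4 fell in Trp53-/- cells. Cspg4, which encodes the NG2 proteoglycan of oligodendrocyte precursors and mural cells, had log2 ratios of 0.44, -0.19, -0.93 and -0.73, and its difference between genotypes of 0.95 ± 0.19 (SE) passed (limma, q = 0.034), the only one of the 8 to do so, beside 1.78% of all genes. It did not pass under median centring (q = 0.25), without background correction (q = 0.059), with an offset of 16 (q = 0.13), with the scanner's own ratios (q = 0.28) or without Trp53-/- replicate 1 (q = 0.062). The summed linear intensity of the 8 was 41412 to 43365 in wild-type controls and 38150 to 53017 with PJ34, and 45543 to 52284 in Trp53-/- controls and 39023 to 43394 with PJ34. All 8 had a kept probe. Of 7 astrocyte markers, 1 passed as higher for the difference between genotypes and 0 as lower. It was S100b (0.69 ± 0.14, SE, limma, q = 0.034), with log2 ratios of 0.06, 0.07, -0.77 and -0.48. Only 3 of the 7 differences were positive, and those of Gfap (-1.02), Aldoc (-0.53) and Slc1a2 (-0.33) did not pass. In Trp53-/- cells 3 of the 7 rose and 1 fell (S100b). Those that rose were Gfap by 0.81 (-0.00018 and 1.62 on the 2 arrays), Slc1a2 by 0.44 and Aldh1l1 by 0.37. With the scanner's own ratios 0 rose and 1 fell there. In wild-type cells 1 rose and 1 fell. S100b did not pass without background correction, with an offset of 16, under median centring or with the scanner's own ratios. Of 9 endothelial markers, Cdh5, Tek, Tie1, Cldn5, Emcn and Esam had none and Kdr, Pecam1 and Flt1 had one. Flt1, a receptor for vascular endothelial growth factor, fell by 0.66 in Trp53-/- cells (q = 0.0017; 0.07 under median centring) and by 0.33 in wild-type cells (q = 0.026). The wild-type fall did not pass under median centring (-0.19), with the mean of the gene's probes (-0.15) or without wild-type replicate 1 (-0.17). Pecam1 was at 0.04 in wild-type and -0.12 in Trp53-/- cells and Kdr at -0.02 and -0.11, and neither passed. The part of other cell types in the Notch3 values was not tested.

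**Figure D2:**
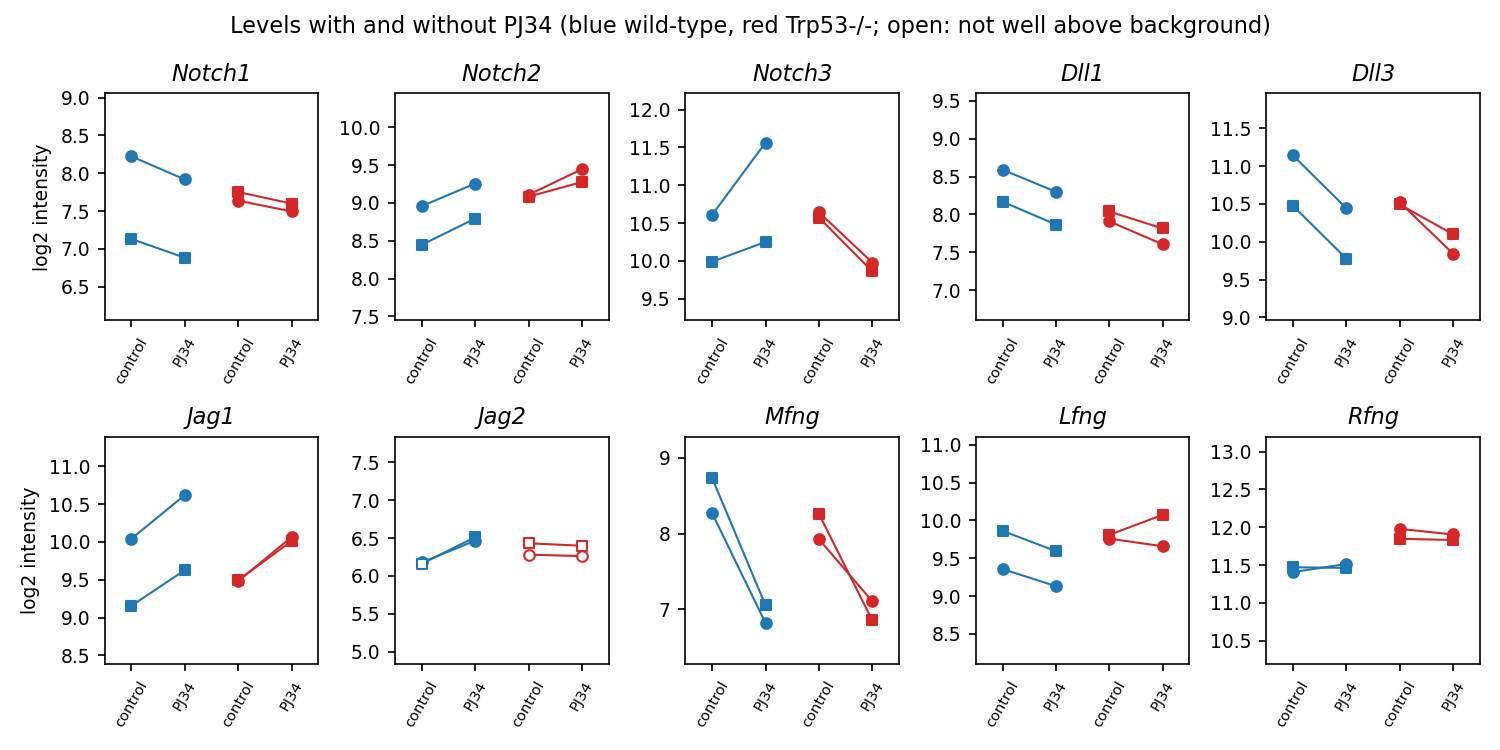
Log2 intensity (vertical axis, each panel spanning 3 units) without and with PJ34 for the probe used for each gene, with a line per array (blue wild-type, red Trp53-/-, circles replicate 1, squares replicate 2). Open symbols were not well above background. The Notch3 lines climb in wild-type and descend in Trp53-/- cells (mean ratio 0.13 there under median centring, beside 0.64 for the median gene). The Mfng lines descend on all arrays. Levels of different genes come from different probes and are not compared.

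Among the ligands, Jag1 was higher with PJ34 in both genotypes and the Delta-like genes were lower, the latter turning to positive means under median centring except Dll3 in wild-type cells. Dll1, the ligand by which nascent neurons signal to progenitors, had log2 ratios of -0.29, -0.30, -0.30 and -0.22. Each value is the mean of up to 10 spots of the same probe, whose SD within an array was 0.061 to 0.081. The means of -0.30 ± 0.0066 and -0.26 ± 0.057 (SD, n = 2) overlapped between genotypes, and under median centring they were 0.16 and 0.27, which were 0.31 and 0.37 below the median gene.

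Dll3, a divergent Delta that acts inside its own cell and does not activate receptors on neighbours, gave -0.70, -0.70, -0.68 and -0.39. It was 1.62-fold lower in wild-type (-0.70 ± 0.00085, SD, n = 2) and 1.45-fold lower in Trp53-/- cells (-0.54 ± 0.20), where replicate 2 was the weakest of the 4 arrays. A second probe gave -0.72, -0.68, -0.73 and -0.42, within 0.049 of the first on every array. Under median centring the wild-type mean was -0.09 and the Trp53-/- mean 0.28, which was 0.36 below the median gene.

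Jag1, a ligand of the Jagged class, gave 0.58, 0.47, 0.58 and 0.52. Its means were 0.52 ± 0.074 and 0.55 ± 0.045 (SD, n = 2), or 1.44-fold and 1.46-fold higher with PJ34. The 4 arrays lay within a narrow range and the genotypes overlapped.

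Jag2 was dim. None of the 4 arrays had its control signal well above background, and its PJ34 signal was above it on both wild-type arrays and on no Trp53-/- array. It was at least 1.03-fold higher with PJ34 in wild-type cells, set against the lowest signal called above background, and it allows no fold in Trp53-/- cells. Its measured log2 ratios were 0.29, 0.35, -0.02 and -0.03.

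Among the fringes, Mfng stood apart from the other 2. Mfng and Lfng encode enzymes that favour signalling by Delta over Jagged ligands. The log2 ratios of Mfng were -1.45, -1.68, -0.82 and -1.41. The means were -1.57 ± 0.16 (SD, n = 2) in wild-type cells, or 2.96-fold lower with PJ34, and -1.11 ± 0.41 in Trp53-/- cells, or 2.16-fold lower. Ranked from the most reduced of 19682 genes, Mfng was at place 2 in wild-type and at place 49 in Trp53-/- cells.

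The second Mfng probe gave -0.88, -1.30, -0.95 and -1.06, or 2.13-fold and 2.01-fold lower. Both probes were well above background in both channels of all arrays and all of their values were negative. The first probe was lower in wild-type than in Trp53-/- cells, narrowly without overlap, whereas the genotypes overlapped in the second, so the size of the difference between genotypes depended on the probe. With the log ratios of the scanner software, which add no offset to the signal, the wild-type mean of the first probe was -2.42 and the Trp53-/- mean -1.71. The control level was 8.27 and 8.74 in wild-type and 7.93 and 8.26 in Trp53-/- cells, and the PJ34 level was 6.82 and 7.05 and 7.11 and 6.85. Treated levels thus overlapped between genotypes.

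Lfng gave -0.23, -0.27, -0.10 and 0.26. Its wild-type mean was -0.25 ± 0.030 (SD, n = 2) and its Trp53-/- mean 0.08 ± 0.26, where the arrays differed in sign and replicate 2 alone was positive. Under median centring the wild-type mean was 0.34, which was 0.13 below the median gene.

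Rfng encodes the fringe that enhances signalling by both ligand classes. Its brighter probe gave 0.11, -0.01, -0.07 and -0.02, and its dimmer one 0.22, -0.12, 0.25 and 0.12. The means of the brighter probe, 0.05 ± 0.081 and -0.05 ± 0.040 (SD, n = 2), lay close to 0, and under median centring they were 0.70 and 0.86, both 0.23 above the median gene.

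**Figure D3:**
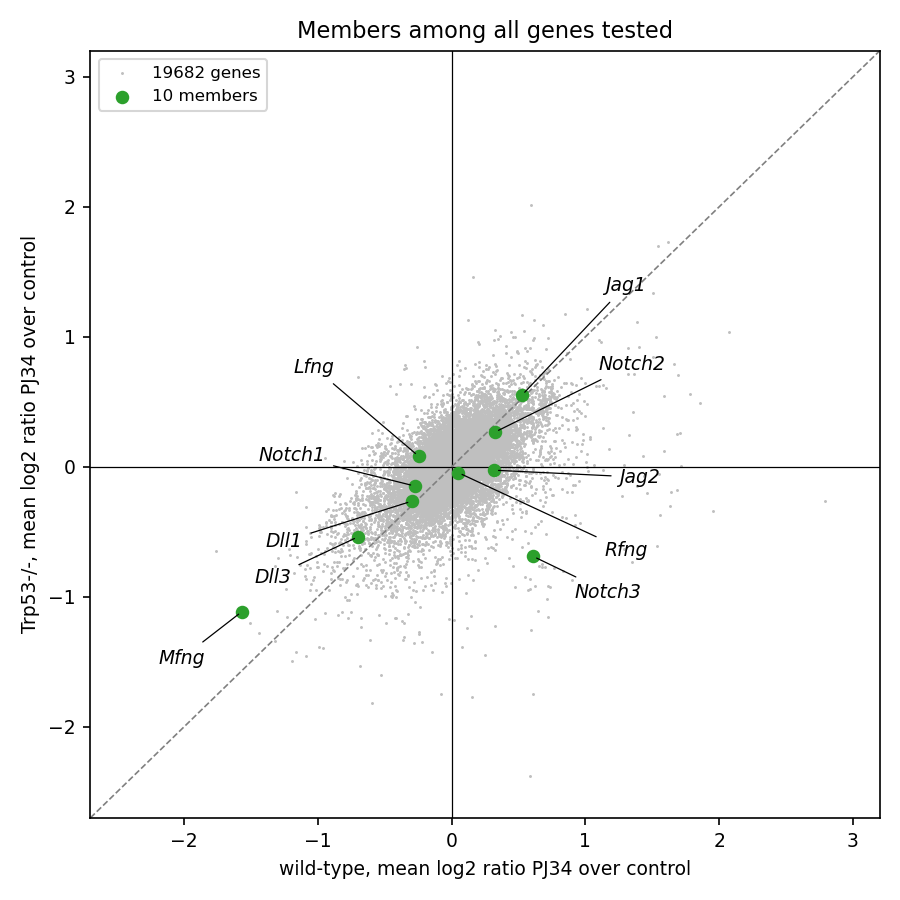
Mean log2 ratio of PJ34 over control in wild-type (horizontal axis) and Trp53-/- cells (vertical axis) for the 19682 genes tested (grey) and the 10 Notch genes (green), with the dashed line marking equal values. Mfng lies at the lower left edge of the cloud, and Notch3 lies below the dashed line at 0.61 and -0.69. Under median centring the Trp53-/- mean of Notch3 was 0.13, beside 0.64 for the median gene.

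Counted over all 10 genes, 5 had a positive and 5 a negative mean in wild-type cells (median -0.10), and 3 and 7 in Trp53-/- cells (median -0.10), where the medians over all genes were 0.03.

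Mfng had the largest wild-type mean of the 10 in absolute size. The genes whose 4 log2 ratios lay nearest to its own, by Euclidean distance over the 4 arrays, were Tnfaip8l1 (0.464), Fgfr3 (0.469), Cd93 (0.572), Tagln2 (0.626) and Mboat1 (0.769). Fgfr3, a receptor for fibroblast growth factors, gave -1.49, -1.39, -1.18 and -1.37. Tagln2, an actin-binding protein, gave -1.48, -1.52, -1.32 and -1.07.

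Without PJ34, none of the 10 genes differed between genotypes by as much as 2-fold. The untreated level in Trp53-/- cells relative to wild-type cells ranged from -0.41 (Dll1 and Mfng) to 0.47 (Rfng) on the log2 scale, with a median of 0.10 against -0.00463 over all genes. Untreated Dll1 was 8.59 and 8.17 in wild-type and 7.91 and 8.04 in Trp53-/- cells, lower in the latter without overlap. Untreated Rfng was 11.41 and 11.47 against 11.98 and 11.85, and Notch2 8.96 and 8.45 against 9.11 and 9.08, both higher in Trp53-/- cells without overlap. The second Rfng probe differed by 0.07. Untreated Mfng was 8.27 and 8.74 against 7.93 and 8.26, narrowly without overlap, and its second probe differed by -0.09. How many of all genes lay apart in this way was not counted, so no difference is read from a lack of overlap.

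For Notch1, Notch3, Jag1, Dll3 and Lfng the genotypes overlapped. Untreated Notch1 was 8.22 and 7.13 in wild-type and 7.64 and 7.75 in Trp53-/- cells, and Jag1 was 10.04 and 9.15 against 9.48 and 9.49. Dll3 was 11.14 and 10.48 against 10.52 and 10.49, and Lfng, likewise overlapping, was 9.36 and 9.86 against 9.76 and 9.81. The wild-type replicates lay farther apart than the Trp53-/- replicates for these 4 genes, with an SD of 0.77 for Notch1, 0.63 for Jag1, 0.47 for Dll3 and 0.36 for Lfng. The same held for Notch3 (0.44 against 0.050), Notch2 (0.36 against 0.017), Dll1 (0.30 against 0.092) and Mfng (0.33 against 0.24). It did not hold for Jag2 (0.012 against 0.11) or Rfng (0.045 against 0.092). Markers of other cell types differed in the same comparison, beside 7.36% of all genes. Of 7 astrocyte markers 4 were higher in untreated Trp53-/- cells and 0 lower. The number higher was 2 with Benjamini-Hochberg adjustment, with the mean of a gene's probes or with the scanner's processed signal. Gfap was higher by 2.38 (1.56 with the mean of its probes) and was well above background in only 1 of the wild-type controls. Of 8 oligodendrocyte markers 2 were higher and 0 lower, and of 10 neuronal markers 2 were higher and 2 lower. Of 3 endothelial markers Flt1 was higher by 2.62 (1.685 with the mean of its probes). Kdr was lower (-1.34, or -0.50 and not passing with the mean of its probes). With either Trp53-/- replicate left out, the spread came from the wild-type pair alone, so a pass is not read from that fit. Without Trp53-/- replicate 1 or 2, the differences were 2.37 and 2.38 for Gfap and 2.67 and 2.58 for Flt1. Those for Kdr were -1.43 and -1.26. The Y-linked Ddx3y and Eif2s3y were well above background in both wild-type controls and in neither Trp53-/- control, and untreated Xist differed by 1.05 (limma, q = 0.065), being higher in both Trp53-/- controls. Their part in the levels of the Notch genes was not tested.

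The other genes of the pathway were taken from a list of 71, of which 63 had a kept probe. Dll4, Hey2 and Heyl were among the 8 without one. In wild-type cells 10 of the 63 rose and 10 fell at p and q below 0.05 (limma), beside 13.7% and 11.4% of all genes. In Trp53-/- cells 10 rose and 8 fell, beside 12.8% and 10.6% of all genes. The SE of a log2 ratio from the fit lay between 0.0872 and 0.134 over the 63 genes. Their median log2 ratio was 0.04 and 0.03, against 0.03 over all genes in both. Under median centring 43 rose and 1 fell in wild-type and 53 rose and 0 fell in Trp53-/- cells. That centring also moved the median over all genes to 0.46 and 0.64. Without Trp53-/- replicate 2, 4 rose and 5 fell in Trp53-/- cells, and without Trp53-/- replicate 1 the number that rose was 3. Without wild-type replicate 1 or 2, 5 rose in wild-type cells.

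**Figure D4:**
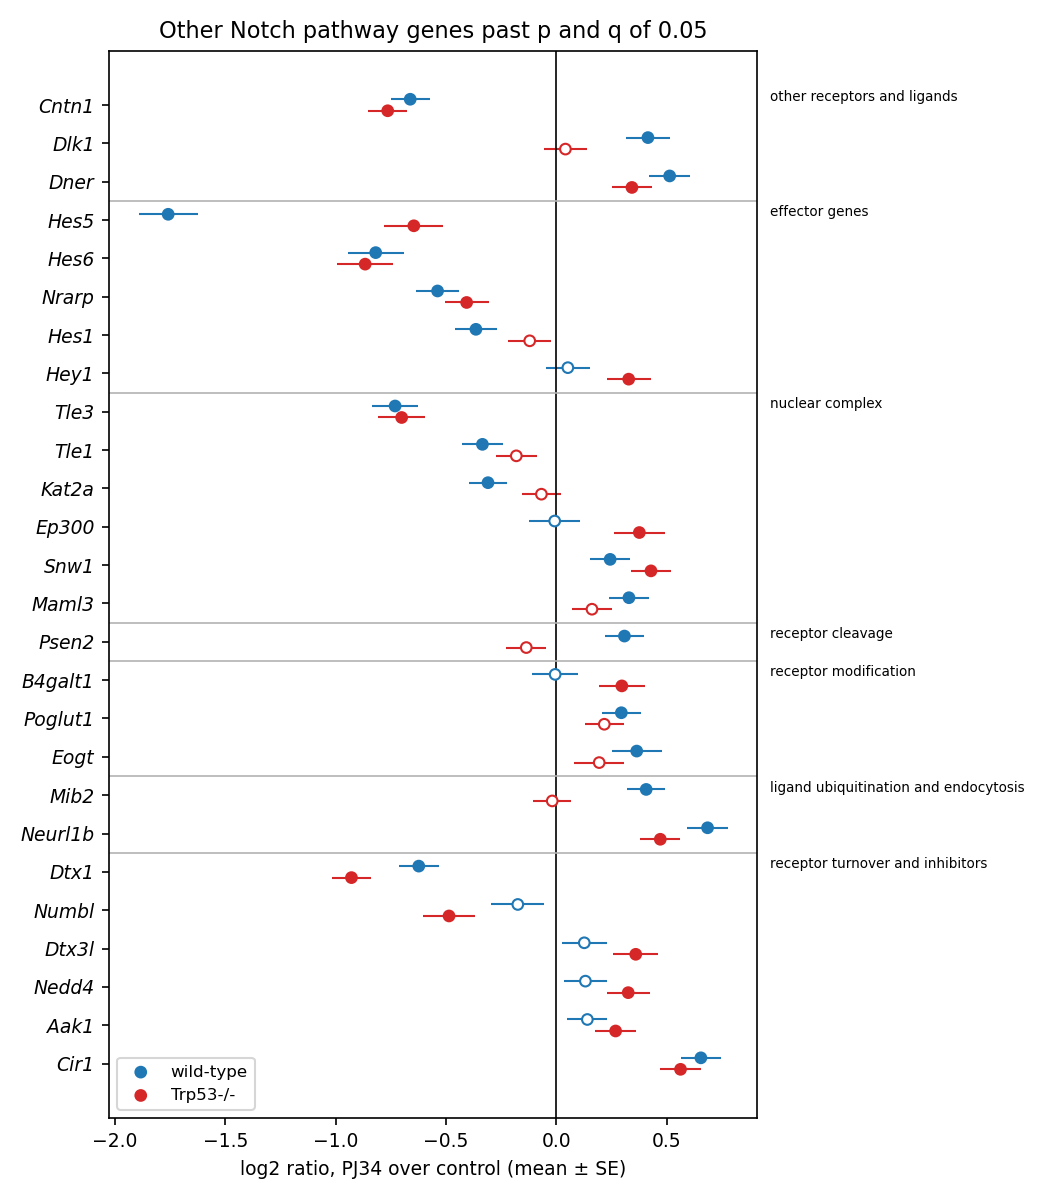
Log2 ratio of PJ34 over control (horizontal axis, mean with SE from limma) of 26 other pathway genes that passed p and q of 0.05 in at least 1 genotype, ordered by role. Filled symbols passed in that genotype (blue wild-type, red Trp53-/-) and open symbols did not. Hes5 shows the largest shift in wild-type cells, at -1.76. Under median centring Hes5 is the only one of these genes that passed as lower in wild-type cells, and none did in Trp53-/- cells.

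Of 6 effector genes of the pathway measured, 4 fell and 0 rose in wild-type and 3 fell and 1 rose in Trp53-/- cells, with a median of -0.45 and -0.26, and under median centring the fall of Hes5 in wild-type cells was the only one that passed. Hes5, a repressor that keeps progenitors undifferentiated, had log2 ratios of -2.01, -1.50, -0.85 and -0.44. It fell by 1.76 on the log2 scale in wild-type (q = 4.2e-05) and by 0.65 in Trp53-/- cells (q = 0.0056), the latter turning to 0.24 under median centring and standing at -0.44 without Trp53-/- replicate 1 (q = 0.075). The difference between genotypes of -1.11 ± 0.19 (SE, q = 0.017) was the only one of the 63 that passed, beside 1.78% of all genes. Without Trp53-/- replicate 2 it was -0.91 (q = 0.051). Hes1, a related repressor, fell by 0.36 in wild-type cells (q = 0.013; 0.03 under median centring; q = 0.11 without wild-type replicate 1), with -0.12 in Trp53-/- cells (q = 0.21). Hey1 rose by 0.33 in Trp53-/- cells (q = 0.025) and was at 0.05 in wild-type cells (q = 0.39), and the rise did not pass without either Trp53-/- replicate (q = 0.10 and 0.20). Nrarp, a feedback inhibitor, fell by 0.54 and 0.41 (q = 0.0026 and 0.011), the latter at -0.27 without Trp53-/- replicate 2 (q = 0.22). Hes6, which opposes Hes1, fell by 0.82 and 0.87 (q = 0.0010 and 0.0013). Under median centring the Trp53-/- values of Nrarp and Hes6 were 0.14 and 0.03, beside 0.64 for the median gene, and neither passed.

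Of 5 other receptors and ligands measured, 2 rose and 1 fell in wild-type and 1 rose and 1 fell in Trp53-/- cells. Cntn1, a neuronal adhesion molecule that binds Notch receptors, fell by 0.66 and 0.76 in wild-type and Trp53-/- cells. Under median centring it was at -0.04 and 0.11, beside 0.46 and 0.64 for the median gene. Dner, a Delta-like protein of neurons, rose by 0.51 and 0.34, the latter not passing without either Trp53-/- replicate (q = 0.064 and 0.19). Dlk1, an atypical ligand, rose by 0.42 in wild-type cells (0.29 without wild-type replicate 2, q = 0.12) and was at 0.04 in Trp53-/- cells. Notch4 was at -0.08 and 0.02 and did not pass in either.

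Of 7 genes for the ubiquitination and uptake of ligands in the sending cell, 2 rose in wild-type, 1 in Trp53-/- cells and 0 fell, beside the 13.7% and 12.8% of all genes that rose. The ubiquitin ligase Neurl1b rose by 0.69 and 0.47, the latter at 0.40 without Trp53-/- replicate 1 (q = 0.057), and Mib2, another such ligase, rose by 0.41 in wild-type cells and was at -0.02 in Trp53-/- cells. Of the 18 genes of the nuclear complex, 2 rose and 3 fell in wild-type and 2 rose and 1 fell in Trp53-/- cells. The corepressor Tle3 fell by 0.73 and 0.70 (-0.13 and 0.14 under median centring), while Rbpj itself was at -0.19 and -0.11 (q = 0.094 and 0.23). Snw1, a cofactor of the same complex, rose by 0.24 and 0.43. Its wild-type rise passed in 4 of 14 alternative settings, and its Trp53-/- rise did not pass without Trp53-/- replicate 1 (q = 0.074). Ep300, a histone acetyltransferase, rose by 0.38 in Trp53-/- cells, and was at 0.18 (q = 0.30) without Trp53-/- replicate 1 and 0.58 without Trp53-/- replicate 2.

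Of 5 genes that modify receptors, 2 rose in wild-type and 1 in Trp53-/- cells, and 0 fell. Eogt, another glycosyltransferase of Notch receptors, rose by 0.36 in wild-type cells. Without wild-type replicate 1 it was at 0.14 (q = 0.39), without wild-type replicate 2 at 0.59, and with the mean of its probes at 0.24 (q = 0.061). Of 13 genes of receptor turnover and inhibition, 1 rose and 1 fell in wild-type and 4 rose and 2 fell in Trp53-/- cells. Cir1, a corepressor that binds RBPJ, rose by 0.66 and 0.56, but with the mean of its probes it was at 0.31 and 0.17, and the latter did not pass (q = 0.084). Dtx1, a ubiquitin ligase that binds Notch, fell by 0.62 and 0.93 (-0.05 and -0.07 under median centring). It was also the only gene of the 63 whose untreated level passed, being 1.85 ± 0.37 (SE) higher in Trp53-/- cells (q = 0.033), beside 7.36% of all genes. Its untreated levels were 8.90 and 10.08 in wild-type and 11.30 and 11.39 in Trp53-/- cells. With either Trp53-/- replicate left out, the spread came from these discordant wild-type levels alone, and a pass is not read from that fit. Numbl, a Numb-like inhibitor of Notch, fell by 0.49 in Trp53-/- cells (0.19 under median centring), and did not pass without either Trp53-/- replicate (q = 0.078 and 0.059). Dtx3l rose there by 0.36, and was at 0.20 (q = 0.33) without Trp53-/- replicate 2. Of the 8 genes of receptor cleavage measured, 1 rose in wild-type cells (Psen2, a catalytic subunit of gamma-secretase, by 0.31, named after its value was seen and not passing without either wild-type replicate, q = 0.11) and 0 passed in Trp53-/- cells.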

How the data were processed

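RNA of PJ34-treated (Cy5) and untreated (Cy3) NSPCs was hybridized to 4 two-colour arrays, 2 per genotype, as grouped per the labels. The deposited scanner files hold spot intensities (mean and local background, uncorrected, and processed signals) and a log10 ratio of red over green that the authors obtained with Agilent Feature Extraction 10.7.3.1. Probe positions are in build mm9 per the file headers. A deposited table of normalized values with 4 columns was not used because its column names match no sample label.

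Spot intensities were background-corrected (normexp, offset 50) and loess-normalized within arrays with limma 3.58.1 in R 4.3.3. Outlier spots were left out and spots of a probe averaged. Levels used quantile normalization of mean intensities between arrays. Probes were kept where either channel exceeded background (the scanner's well-above-background flag) on each array of at least 1 genotype (27042 of 55681 probes), and a gene was represented by its brightest kept probe. Of all probes, 48.9% took their symbol from RefSeq through their accession and the others from the files, whose annotation is older on wild-type replicate 1. All 4 arrays entered one limma fit, with Storey's q over 19682 genes. Genes passed at p and q below 0.05. On simulated data for the wild-type comparison, 198 of 200 genes changed by 2 on the log2 scale were recovered at this threshold and over 2-fold, with 1 false call among 19682 genes. The simulated noise was independent between genes and arrays. Smaller changes, dye preferences and effects shared across an array were not simulated, so recovery and false calls under these are not known. Each array was the only one of its slide, so no slide could be fitted as a block, and 4 arrays limit the precision. All 10 genes are named with every probe. Of the other pathway genes, those that passed are named, at most the 6 largest per direction and comparison and with 1 listed gene not reported here by name, besides Hes1, Hes5, Hey1, Nrarp, Notch4 and Rbpj. The members and lists were chosen with earlier results of these data known. Figures were drawn with matplotlib 3.10.9.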

Additional observations from a re-analysis of the deposited data

Results flagged for a closer look

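Notch3 was higher with PJ34 on both wild-type arrays and lower on both Trp53-/- arrays, a difference of 1.30 between the mean log2 ratios. No test of this difference is given, because the gene was chosen with these values known, and the Trp53-/- mean turned to 0.13 under median centring.

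Jag2 had positive log2 ratios on both wild-type arrays and negative ones on both Trp53-/- arrays, a measured difference of 0.35 that rests on signals near background. No test of it is given either, and its Trp53-/- mean turned to 0.13 under the ratios that the scanner computed. The Jag2 probe was not well above background in either channel of the Trp53-/- arrays or in the wild-type controls. It was kept only through its PJ34 signal in wild-type cells, where it was at least 1.03-fold higher. A difference between genotypes is therefore not read from it.

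The response of Hes5 differed between genotypes in the limma test of the difference itself, by -1.11 on the log2 scale (q = 0.017), being lower in wild-type cells. Over the 14 alternative settings its q lay between 1.6e-05 and 0.26.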

How the results depend on the processing

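Counts of other pathway genes that passed changed with the centring of the arrays, which was not varied for untreated levels. Under median centring, 43 rose and 1 fell in wild-type and 53 rose and 0 fell in Trp53-/- cells, and 8 means of the Notch genes turned positive: Dll1 to 0.16, Notch1 to 0.030 and Lfng to 0.34 in wild-type, and Dll1 to 0.27, Dll3 to 0.28, Notch1 to 0.33, Notch3 to 0.13 and Rfng to 0.86 in Trp53-/- cells. All but that of Rfng stayed below the median gene, which this centring had moved to 0.46 and 0.64. Under the ratios computed by the scanner, 4 rose in wild-type, and 2 rose and 4 fell in Trp53-/- cells. With Benjamini-Hochberg adjustment 6 rose in Trp53-/- cells. The single gene that differed between genotypes (Hes5) was lost with an offset of 16 and under the scanner's own ratios (0 each). In untreated cells the number higher in Trp53-/- cells was 3 without background correction, 2 with an offset of 16, 0 without a filter, 3 with the mean of a gene's probes and 0 with Benjamini-Hochberg adjustment. The cause was not tested. Leaving out 1 array gave 5 to 9 rising and 7 to 10 falling in wild-type, 3 to 12 and 5 to 8 in Trp53-/- cells, 0 higher and 0 to 1 lower for the difference, and 0 to 25 higher and 0 to 7 lower in untreated cells.

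The labels number the arrays but do not say that a number pairs them. The deviations of same-numbered arrays from their genotype means correlated at -0.179. With the replicate block, 5 genes were higher in untreated Trp53-/- cells. With the numbers crossed, a setting added after seeing the data, 1 was higher and 2 lower for the difference and 2 higher in untreated cells. The strict filter left no value for Jag2.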
